A study of Mus musculus with 8 samples.

Results

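Vessel growth genes of the VEGF, angiopoietin and apelin systems were followed across the cell classes of naïve mouse brain and of GL261 glioma. The 10 genes were listed by name and all are reported: the ligands Vegfa and Pgf, the receptors Flt1, Kdr, Nrp1 and Tek, the tip cell genes Angpt2, Apln and Esm1, and the endothelial diaphragm gene Plvap. They are 10 of the 32502 genes found in the count tables, and each was found there. Vascular endothelial growth factor A, the product of Vegfa, is released by hypoxic or activated cells and binds the tyrosine kinase receptors Kdr and Flt1 on endothelium, where Nrp1 acts as co-receptor; placental growth factor, the product of Pgf, binds Flt1 and Nrp1 but not Kdr. Endothelial cells that lead a sprout, called tip cells, produce Angpt2, Apln and Esm1, and Angpt2 competes with Angpt1 for the receptor Tek. Plvap builds the diaphragms of fenestrated and leaky vessels and is low in endothelium with an intact blood-brain barrier.

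The data were 8 Drop-seq libraries of C57BL/6 mice (C57BL/6N in the study's methods), 1 for each combination of genotype (wild type, WT, labelled Irg1/Acod1 +/+; knockout, KO, labelled Irg1/Acod1 -/-) and condition (naïve, early, intermediate, late). GL261, a mouse glioma line, had been injected into the brain of the tumour-bearing mice, and tissue was taken at a tumour volume of 5 to 10 mm3 (early), 20 to 25 mm3 (intermediate) or 30 to 35 mm3 (late); naïve mice carried no graft. Each naïve title names 2 mice and each tumour-bearing title 1, and at 2 stages, early and intermediate, the WT and the KO mouse were of opposite sex, so that genotype and sex cannot be told apart there. The KO allele is a cassette inserted in Acod1 of the host, so the implanted tumour cells do not carry it, and since Acod1 UMIs were also present in the KO libraries, the libraries are named by their labels. Drop-seq counts the 3′ ends of messenger RNA by unique molecular identifiers (UMIs). Levels are given as CPM, the UMIs of a gene per 1000000 UMIs of the summed cells of 1 class in 1 library, and they are compared within a gene only, because length and 3′ capture differ between genes.

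The analysis kept 5698 cells, 454 to 1000 per library, with a median of 2607.5 to 5642.5 UMIs per cell. Classes were rebuilt from marker lists after clustering without the 10 genes and without the other listed angiogenesis genes, also those that served as markers. In the tumour-bearing libraries they included 3396 tumour cells, 472 macrophage-like cells (TAM II), 176 microglia-like cells (TAM I), 92 endothelial cells, 37 mural cells and fibroblasts, 74 astrocytes, 62 oligodendrocyte precursors (OPCs), 224 oligodendrocytes and 187 lymphocytes; the naïve libraries held 203 microglia, 186 endothelial cells, 13 mural cells and 218 astrocytes. Endothelial cells numbered 85 and 101 in the WT and KO naïve libraries and 33, 15, 3, 17, 8 and 16 in the WT early, KO early, WT intermediate, KO intermediate, WT late and KO late libraries. The 3 cells of the WT intermediate library entered no test, which required 5 cells per library and class. All 15 endothelial markers were detected in the endothelial cells of the naïve libraries and of each tumour-bearing library with at least 5 of them, and 50 cells of the endothelial cluster with more mural than endothelial markers were counted as mural. The libraries shared 2 barcodes over 9 cells, which held 11 UMIs of the 10 genes, and leaving these cells out changed no call.

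The regions just before the start sites of 4 genes are shown because Apln and Pgf rose together in tumour-bearing endothelium and because Flt1 and Kdr, receptors of the same pathway, did not pass the test. Each is the 250 bases upstream of the first RefSeq start site, written 5′ to 3′ on the strand of the gene (minus for each) and taken from RefSeq on GRCm38.p6. The 2 annotations differ for Pgf: its window lies inside the GENCODE M21 span of the gene (85166635 to 85177790). It is therefore upstream of the RefSeq start but not of the GENCODE start. Capitals mark ACGTG or GCGTG on either strand, the core letters of hypoxia response elements.
Apln, chrX:48034854-48035103: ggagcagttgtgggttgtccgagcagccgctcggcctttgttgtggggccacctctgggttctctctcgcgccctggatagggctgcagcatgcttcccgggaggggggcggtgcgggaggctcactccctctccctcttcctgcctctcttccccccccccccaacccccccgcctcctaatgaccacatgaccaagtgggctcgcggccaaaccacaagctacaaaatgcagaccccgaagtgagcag
Pgf, chr12:85177314-85177563: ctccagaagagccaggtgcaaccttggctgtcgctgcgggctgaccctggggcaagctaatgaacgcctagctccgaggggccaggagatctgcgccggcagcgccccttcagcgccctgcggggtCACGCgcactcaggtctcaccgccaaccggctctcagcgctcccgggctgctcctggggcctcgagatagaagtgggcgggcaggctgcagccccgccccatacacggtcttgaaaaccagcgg
Flt1, chr5:147726012-147726261: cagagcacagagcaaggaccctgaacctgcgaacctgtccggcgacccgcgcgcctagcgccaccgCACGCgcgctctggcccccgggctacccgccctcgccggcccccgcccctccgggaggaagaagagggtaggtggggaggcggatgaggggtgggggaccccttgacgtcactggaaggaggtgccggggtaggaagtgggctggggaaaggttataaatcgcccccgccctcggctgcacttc
Kdr, chr5:75978456-75978705: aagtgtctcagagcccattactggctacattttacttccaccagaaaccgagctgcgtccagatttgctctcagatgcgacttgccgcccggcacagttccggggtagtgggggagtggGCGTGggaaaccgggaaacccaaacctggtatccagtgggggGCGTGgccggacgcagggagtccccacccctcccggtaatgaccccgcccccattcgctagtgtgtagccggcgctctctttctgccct
The Apln window held 0 cores, the Pgf window 1 with its first base 124 bases before the start, the Flt1 window 1 at 184 bases and the Kdr window 2 at 131 and 89 bases. Of 32851 mouse windows of the same length, 38.6% held at least 1 core, 16.6% ACGTG and 28.2% GCGTG. A match in these windows is a description and not a binding site, and 8 of the 10 genes had a window in the table.

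Vegfa (chromosome 17, 46016993 to 46032369, minus strand; all gene positions are on GRCm38) was found in several classes, while endothelial cells and TAM I held little. By the median of the tumour-bearing libraries, astrocytes and TAM II had the highest CPM among the plotted classes. Over pooled tumour-bearing cells OPCs stood above both, with 78 of their 113 Vegfa UMIs in 5 cells. In tumour cells its level was 94.0 in the WT early, 106 in the KO early, 133 in the WT intermediate, 124 in the KO intermediate, 101 in the WT late and 127 in the KO late library. In TAM II, the macrophages that enter the tumour from blood, it was 547, 240, 311, 538, 115 and 309 in the same order. Each library had the higher level in TAM II, by a small margin in the WT late library (115, exact 95% Poisson interval 65.6 to 186, against 101, interval 92.9 to 109), and the tumour cells covered a narrower range than TAM II. The tumour marker list stood at 1656 to 3964 CPM in TAM II and at 5383 to 10267 in tumour cells. The log2 fold change of TAM II over tumour cells was 1.83 (SE 0.26, edgeR adjusted p = 1.63e-06, higher in 6 of 6 libraries).

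TAM I, the resident microglia of the tumour, gave Vegfa levels of 46.2, 0, 0, 13.5, 25.4 and 63.1 in the same 6 libraries, below both TAM II and tumour cells in each. The 0 allows up to 42.3 in the KO early and 173 in the WT intermediate library, which held 23 and 5 TAM I. The log2 fold change of TAM II over TAM I was 3.48 (SE 0.42, adjusted p = 1.48e-06), and that of TAM I over tumour cells was −1.65 (SE 0.45, adjusted p = 0.00265). Naïve microglia held 9.67 in the WT and 0 in the KO library; Vegfa did not pass the count filter in the comparison of TAM I with naïve microglia, and was tested only with no filter (log2 fold change 2.76, SE 0.97, adjusted p = 0.101). Endothelial cells, whose receptors bind the ligand, had 6.51 and 8.91 in the naïve libraries and 6.75, 0, 38.1, 0 and 44.2 in the WT early, KO early, KO intermediate, WT late and KO late libraries, and were lower than tumour cells by 2.84 on the log2 scale (log2 fold change −2.84, SE 0.68, adjusted p = 0.00131). With the mural cells of the endothelial cluster included the difference was −0.24 (adjusted p = 0.679). A count of 0 in endothelium allows up to 56.9 CPM in the KO early and 122 in the WT late library.

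**Figure D1:**
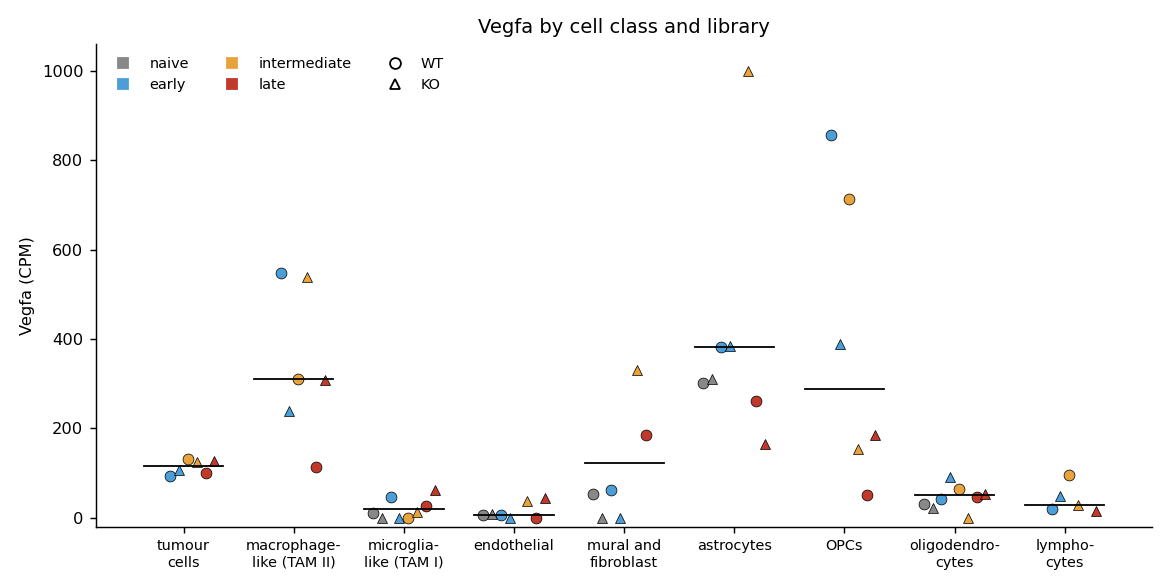
Vegfa UMIs per 1000000 UMIs (CPM, linear axis) in 9 cell classes; each point is 1 library with at least 5 cells of the class, coloured by condition, circles WT and triangles KO, and the line is the median of the tumour-bearing libraries. Astrocytes (median 381) and TAM II (310) sit above tumour cells (115), and TAM I (19.4) and endothelial cells (6.75) lie near the bottom.

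Astrocytes, which ensheath brain vessels, had Vegfa without a tumour as well as with one. The naïve libraries held 301 (WT) and 309 (KO), and the tumour-bearing ones 381, 385, 1000.2, 260 and 166 in the WT early, KO early, KO intermediate, WT late and KO late libraries, on both sides of the naïve values. The log2 fold change of tumour-bearing over naïve astrocytes was 0.35 (SE 0.43, adjusted p = 0.916), and its sign turned when the count filter was dropped (−0.08) or when 10 cells per sum were required (−0.04). OPCs ranged from 50.1 to 856 with a median of 287, and 78 of their 113 Vegfa UMIs lay in 5 cells. The median was 124 in mural cells, 50.2 in oligodendrocytes and 27.8 in lymphocytes. Ordered by these medians, every class had a range that overlapped that of its neighbours, except tumour cells (94.0 to 133) and oligodendrocytes (0 to 90.7).

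The share of cells with at least 1 Vegfa UMI was 54.7% in TAM II, 34.1% in tumour cells, 9.09% in TAM I and 5.43% in tumour-bearing endothelium, at median depths of 3150, 4893, 3005 and 2801 UMIs. When each cell was thinned to 1500 UMIs the shares were 31.4%, 13.5%, 3.98% and 4.40%. Lymphocytes, taken as a reference class and not shown to lack Vegfa, had 8.56% at a median of 3029 UMIs and 3.23% after thinning. The shares of TAM I and endothelium lay within the 95% binomial interval of lymphocytes (1.19% to 6.89% after thinning). That interval pools cells over libraries and covers counting error only, so it is not a test for absence of Vegfa. By numbers of molecules, tumour cells supplied 74.3% of the 4606 Vegfa UMIs of the tumour-bearing libraries with 70.9% of the cells, and TAM II 18.3% with 9.85% of the cells. Tumour cells were deeper, and their share of all UMIs was larger than their share of cells, while that of TAM II was smaller. These pairs are therefore not a comparison of levels, and in CPM TAM II stood above tumour cells in each library. In the naïve libraries astrocytes supplied 193 of 240 Vegfa UMIs (80.4%).

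Pgf (chromosome 12, 85166635 to 85177790, minus strand) was sparse, and its UMIs came from few cells. The endothelial level was 0 in the WT and 17.8 in the KO naïve library and 216, 0, 38.1, 0 and 839 in the WT early, KO early, KO intermediate, WT late and KO late libraries. The groups overlapped, the KO late library stood above the others, and the limits of the 0 counts are those given for Vegfa (9.77 in WT naïve). The log2 fold change of tumour-bearing over naïve endothelium was 4.49 (SE 1.20, adjusted p = 0.0227), and 3.86 without the WT naïve (adjusted p = 0.0570) and 7.03 without the KO naïve library. The 74 Pgf UMIs of tumour-bearing endothelium lay in 8 of 92 cells, and 38 of them in 1 cell. Tumour cells held 77 Pgf UMIs in 50 cells (levels 0.251 to 5.76), mural cells 28 in 10 cells and TAM II 8 in 6 cells, so that of 196 Pgf UMIs in the tumour-bearing libraries 39.3% came from tumour cells, 37.8% from endothelium and 14.3% from mural cells.

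By level in CPM the receptors were concentrated in endothelium, with Nrp1 the exception. By numbers of molecules, tumour-bearing endothelium held 1168 Flt1, 158 Kdr and 146 Tek UMIs. Tumour cells, the most numerous class, held 1076, 102 and 41. Flt1 (chromosome 5, 147561604 to 147726011, minus strand), which binds Vegfa tightly and signals weakly, had endothelial levels of 3936 and 3871 in the WT and KO naïve libraries and 3731, 3166, 2820, 4077, 3545 and 2341 from WT early to KO late, in the order used above, the WT intermediate value resting on 3 cells here and below. Naïve and tumour-bearing libraries overlapped, with a log2 fold change of −0.25 (SE 0.28, adjusted p = 0.732). Nearly all endothelial cells had a Flt1 UMI, 97.8% naïve and 100% tumour-bearing (97.3% and 98.9% after thinning).

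Flt1 was also found outside endothelium at a lower level. Tumour cells ranged from 16.3 to 57.9 CPM and TAM II from 0 to 113. Tumour-bearing mural cells and fibroblasts, parted from the endothelial cluster by markers, held 114 Flt1 UMIs in 13 of 37 cells. Those 13 cells, pooled, had endothelial markers at 6950 CPM, against 1559 in the mural cells without Flt1. Endothelium exceeded tumour cells by a log2 fold change of 6.73 (SE 0.46, adjusted p = 2.59e-11), and TAM II exceeded tumour cells by 1.24 (SE 0.41, adjusted p = 0.0103). The latter call was lost with DESeq2 (adjusted p = 0.0830), without the KO early library (0.105) and without the KO late library (0.0541). The share of cells with a Flt1 UMI after thinning was 11.4% in TAM II, 5.29% in tumour cells and 1.08% in lymphocytes (21.4%, 17.9% and 2.14% before thinning).

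Kdr (chromosome 5, 75932827 to 75978458, minus strand), the main signalling receptor for Vegfa, had endothelial levels of 469 and 345 in the naïve libraries and 445, 303, 413, 838, 489 and 309 from WT early to KO late. The groups overlapped, and the log2 fold change was 0.21 (SE 0.35, adjusted p = 0.859). Tumour cells ranged from 0.338 to 10.4 CPM, and endothelium exceeded them by a log2 fold change of 7.57 (SE 0.50, adjusted p = 1.58e-11). The 21 tumour cells with a Kdr UMI, pooled, had endothelial markers at 6450 CPM, against 802 in the tumour cells without one. Of the 102 Kdr UMIs of tumour cells, 50 lay in 1 cell of the KO intermediate library. That cell held 1599 UMIs of endothelial markers among 101449 and so weighs heavily in the pooled level. TAM II held 4 Kdr UMIs in all.

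Tek (chromosome 4, 94739289 to 94874976, plus strand), the receptor of the angiopoietins, had the widest gap to tumour cells in log2 terms among the receptors, 8.51 (SE 0.54, adjusted p = 3.18e-10). Its endothelial level was 690 and 654 in the naïve libraries and 418, 436, 550, 305, 448 and 574 from WT early to KO late. Every tumour-bearing library was below both naïve ones. The log2 fold change of −0.68 (SE 0.29, unadjusted p = 0.0293) did not pass over all genes (adjusted p = 0.235). Tumour cells held 41 Tek UMIs in 12 cells, 18 of them in 1 cell of the KO intermediate library that also held all 50 Kdr UMIs of that class and library, 31 Flt1 UMIs and, of 101449 UMIs in all, 1599 of endothelial and 247 of tumour markers. The 12 cells had endothelial markers at 10395 CPM, against 806 in the rest. TAM II held 0 Tek UMIs and TAM I held 1.

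Nrp1 (chromosome 8, 128358604 to 128503363, plus strand), which serves semaphorins as well as VEGF, was shared between vessel wall and myeloid cells. Endothelial levels were 335 and 229 in the naïve libraries and 175, 190, 275, 914, 530 and 309 from WT early to KO late, with overlap (log2 fold change 0.39, SE 0.47, adjusted p = 0.750). TAM II had 99.0, 106, 211, 130, 165 and 217 in the 6 tumour-bearing libraries, and TAM I ranged from 127 to 265. Both were above tumour cells, which ranged from 18.3 to 63.3, in every library: the log2 fold change was 2.40 for TAM II (SE 0.29, adjusted p = 1.21e-07), 2.86 for TAM I (SE 0.34, adjusted p = 1.29e-07) and 3.73 for endothelium (SE 0.36, adjusted p = 1.04e-08).

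Within the myeloid cells no comparison of Nrp1 passed the threshold. TAM II against TAM I gave a log2 fold change of −0.46 (adjusted p = 0.365), and TAM I against naïve microglia, which had 125 and 160 CPM, gave 0.44 (SE 0.32, adjusted p = 0.364). Nrp1 was found in 42.6% of TAM I, 32.6% of TAM II and 16.2% of tumour cells, and in 25.6%, 16.7% and 6.13% after thinning, where lymphocytes had 11.3%, above the tumour cells.

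Counted over the 10 genes, 6 could be tested between classes within the tumour-bearing libraries. Between endothelium and tumour cells 5 were higher in endothelium (Flt1, Kdr, Nrp1, Tek and Angpt2) and 1 lower (Vegfa), where 53.0% of all 4576 genes tested were called. Between TAM II and tumour cells 3 were higher (Vegfa, Nrp1 and Flt1) and 1 lower (Angpt2), against 70.0% of all genes called. Between TAM II and TAM I 1 was called (Vegfa) against 20.4%, and between TAM I and tumour cells 1 was higher (Nrp1) and 2 lower (Vegfa and Angpt2) against 65.1%.

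**Figure D2:**
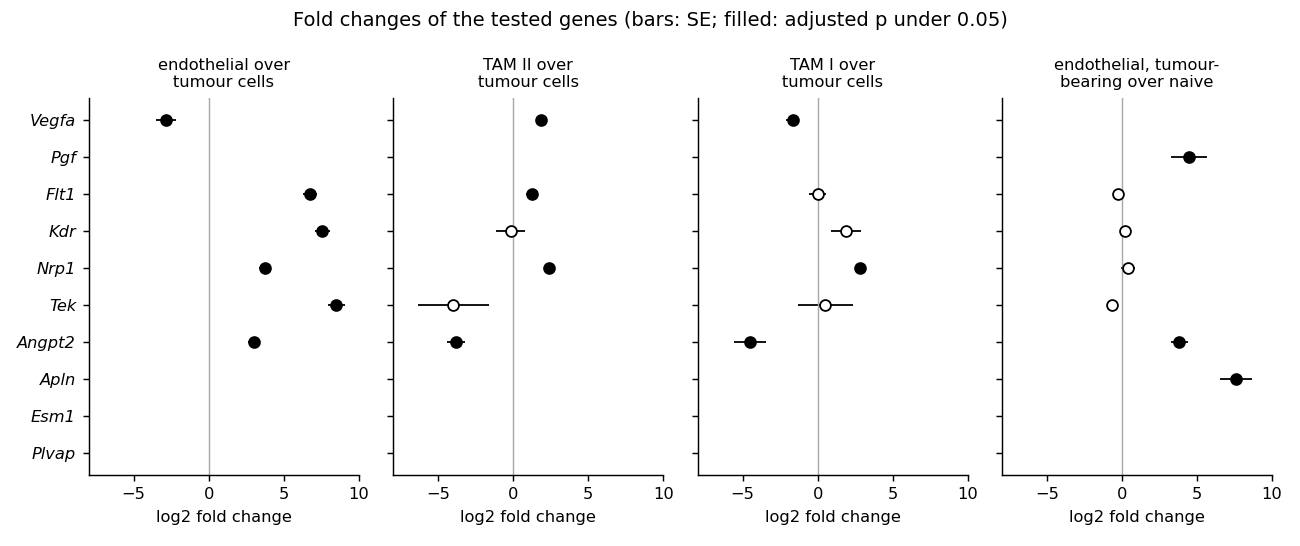
Log2 fold change (linear axis in log2 units) of each tested gene in 4 comparisons; points are edgeR estimates, bars 1 SE, and filled points have an adjusted p under 0.05. The receptors Flt1, Kdr and Tek lie between 6.73 and 8.51 in endothelium over tumour cells, Vegfa lies at 1.83 in TAM II and −1.65 in TAM I over tumour cells, and Apln, Angpt2 and Pgf lie at 7.61, 3.81 and 4.49 in tumour-bearing over naïve endothelium.

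In endothelium the tip cell genes Apln and Angpt2 and the ligand Pgf were higher with a tumour, while none of the 4 receptors passed the test. Of 7 genes tested, 3 were higher in tumour-bearing than in naïve endothelium (Apln, Angpt2 and Pgf) and 0 lower, where 5.86% of all 1366 genes tested were called (65 higher and 15 lower). The others tested were the 4 receptors, while Vegfa, Esm1 and Plvap did not pass the count filter.

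Apln (chromosome X, 48025146 to 48034853, minus strand), the ligand of the apelin receptor, was almost undetected in naïve endothelium, with 0 UMIs in the WT library (at most 9.77 CPM by the limit that 0 counts allow) and 1 UMI in the KO library (2.97 CPM). The tumour-bearing libraries held 1329, 152, 481, 362, 81.5 and 22.1 CPM from WT early to KO late. All 6 lay above both naïve values, and the WT early library stood far above the rest with 197 of the 234 UMIs, while the WT late value rests on 2 UMIs and the KO late value on 1. With doublets removed the KO early library held 0 Apln UMIs, below the KO naïve library (3.12 CPM). The log2 fold change was 7.61 (SE 1.05, adjusted p = 4.49e-05). It became 5.48 without the WT naïve and 9.45 without the KO naïve library, and the naïve side held 1 UMI, whose counting error (exact Poisson, 95%) spans 0.0752 to 16.6 CPM in its library. The level was lower in the KO than in the WT library at the early, intermediate and late stage, and Apln did not pass the filter of the genotype comparison in endothelium. It was tested and called lower in KO with Leiden clustering, with at least 500 genes per cell, with no count filter and without the KO late library.

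Angpt2 (chromosome 8, 18690263 to 18741562, minus strand), the angiopoietin that loosens the vessel wall, was present at a low level in naïve endothelium, 19.5 and 20.8 CPM. With a tumour it was 499, 171, 68.8, 305, 40.7 and 287, above both naïve libraries in each, and the log2 fold change was 3.81 (SE 0.56, adjusted p = 9.39e-05). The WT late value rests on 1 UMI and the WT intermediate value on 1 UMI in 3 cells. With doublets removed and the cells clustered anew, Angpt2 stood at 20.3 in KO early and 20.7 in WT late. These lay between the naïve values of 20.0 (WT) and 21.9 (KO), so the separation in each library was lost. The WT late library lost no endothelial cell as a doublet. Its 1 Angpt2 UMI then belonged to a sum of 9 cells in place of 8, after the renewed naming of cells.

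**Figure D3:**
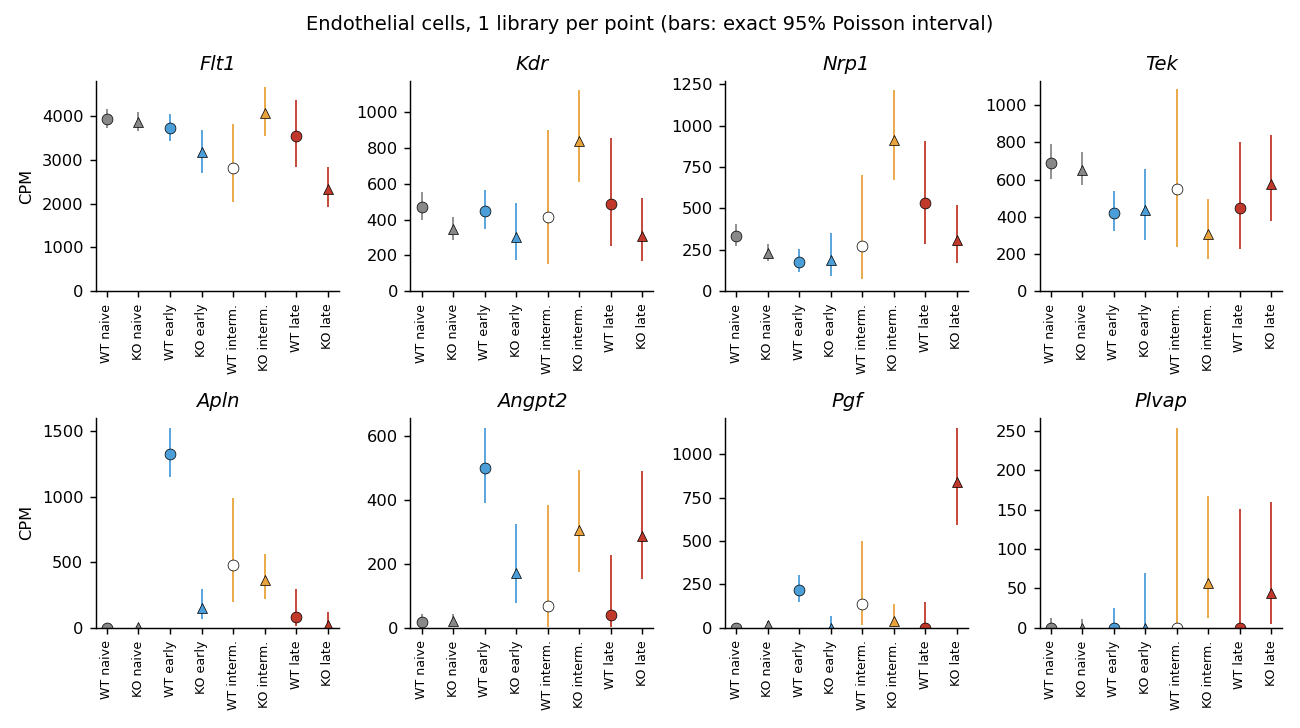
Endothelial levels in CPM (linear axes from 0) of 8 genes in the 8 libraries; bars are exact 95% Poisson intervals for counting error, and the white point is the library with 3 cells. Flt1, Kdr and Nrp1 overlap between naïve and tumour-bearing libraries, and Tek lies between 305 and 574 with a tumour against 654 and 690 without. Apln and Angpt2 as plotted are above the naïve values in each tumour-bearing library. With doublets removed and the cells clustered anew this did not hold in KO early (both genes) or in WT late (Angpt2).

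The rise was carried by a minority of cells. Of 92 tumour-bearing endothelial cells, 14 held an Apln UMI (15.2%, or 10.99% after thinning to 1500 UMIs), against 1 of 186 naïve cells (0.538%, and 0 after thinning); lymphocytes had 0.535%. The share with Angpt2 was 19.6% against 5.38% (13.2% against 4.89% after thinning), and that with Pgf 8.70% against 2.69% (2.20% against 1.09%). Of the 234 Apln UMIs 206 lay in 5 cells, and of the 114 Angpt2 UMIs 76 lay in 5 cells. In naïve endothelium Angpt2 gave 13 UMIs in 10 cells.

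The 3 genes were found together in some cells, mostly of the WT early library. Of the 14 cells with Apln 11 also held Angpt2 and 8 held Pgf, whereas of the 78 without Apln 7 held Angpt2 and 0 held Pgf. All 8 cells with Pgf held both other genes. Of the 22 cells with any of the 3 genes or Esm1, 11 held at least 2 of these genes and 8 at least 3. The WT early library gave 6 of these 11 cells and 5 of these 8, and the WT late library 0 of either. Cells with Apln were deeper (median 5866 UMIs against 2679), which raises the chance of finding any gene, and were lower in Tek (143 against 538 CPM) and Flt1 (2481 against 3816) but not in Kdr (474 against 465); these are levels in pooled cells with no test. Every tumour-bearing library contained at least 1 endothelial cell with Apln, Angpt2, Pgf or Esm1: 8 of 33 in WT early, 2 of 15 in KO early, 1 of 3 in WT intermediate, 4 of 17 in KO intermediate, 3 of 8 in WT late and 4 of 16 in KO late.

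**Figure D4:**
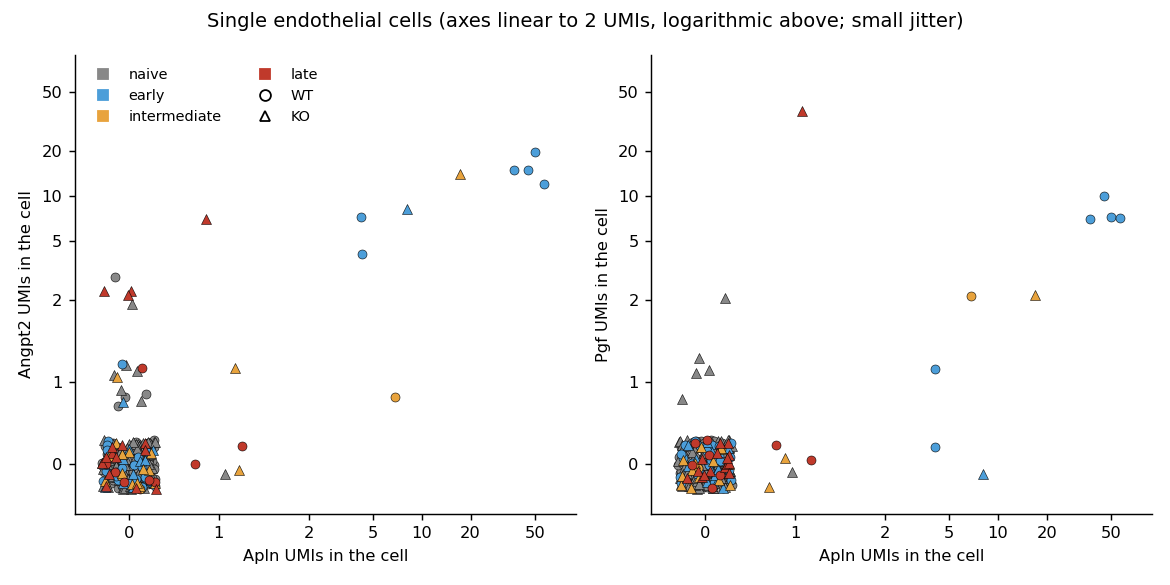
Single endothelial cells by their Apln UMIs and their Angpt2 (left) or Pgf (right) UMIs, axes linear to 2 UMIs and logarithmic above with a small jitter; colour gives the condition, circles WT and triangles KO. Of the 14 tumour-bearing cells with Apln, 6 are of the WT early library. Among the 14, 11 also hold Angpt2 and 8 hold Pgf, and the naïve cells sit at or near 0.

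Some marker lists of other cell types were higher in this group, and others were lower. The 22 tumour-bearing endothelial cells with any of the 4 genes had summed endothelial markers of 15030 CPM, against 34363 in the 70 without and 35933 in naïve cells. Their tumour marker list stood at 4170 CPM against 1443 and 904, with 3 of its 10 markers at 0 and 87.8% of its UMIs from Vim, a filament gene that endothelium also expresses. Their microglia list stood at 5405 against 1842 and 1807, with 3 of 12 markers at 0 and 97.4% of its UMIs from Sparc, a matrix gene that endothelium also expresses. The mural list stood at 3394 against 2297 and 2276, with 1 of 15 at 0 and 50.1% of its UMIs from the pericyte marker Rgs5, and the macrophage list at 793 against 227 and 197. The lists of astrocytes (368 against 232), ciliated ependymal cells (98.1 against 23.2) and neurons (73.6 against 32.5) were also higher than in cells without. Lower were the lists of lymphocytes (0 against 213), oligodendrocytes (254 against 654), neuroblasts (32.7 against 148) and OPCs (8.18 against 18.6). Those of choroid plexus (188 against 204) and dendritic cells (221 against 223) were close. The part of these markers in the rise of Apln, Angpt2 and Pgf was not tested. By library, the summed endothelial markers ranged from 23979 to 32366 with a tumour and were 34539 and 37205 without.

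The calls in endothelium rest on few cells and libraries. Doublet removal took 7 of the 186 naïve cells and 1 of the 92 tumour-bearing cells (in the KO early library, with 8 Apln and 8 Angpt2 UMIs), and the remaining cells were clustered and named anew, with 99.71% in the same class. In that setting 0 of the 3 genes passed: the log2 fold changes were 7.36 for Apln (adjusted p = 0.0527), 3.54 for Angpt2 (0.0752) and 5.09 for Pgf (0.158). Without the WT early library 0 passed as well, with Angpt2 at 2.91 (adjusted p = 0.0584) and only 5 of the 10 genes above the count filter. Without the WT naïve or the KO late library, and with the whole endothelial cluster, Apln and Angpt2 passed and Pgf did not. DESeq2 called Apln and Angpt2 but not Pgf (adjusted p = 0.509).

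Esm1 (chromosome 13, 113209659 to 113218098, plus strand), a secreted proteoglycan of tip cells, was near the detection limit. Naïve endothelium held 0 UMIs, which allows up to 9.77 CPM in the WT and 8.91 in the KO library. Tumour-bearing endothelium held 3 UMIs in 3 cells, at 13.5 CPM in the WT early and 19.1 in the KO intermediate library, and the tumour-bearing libraries 14 over all classes. A difference was not detectable at this depth.

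Plvap (chromosome 8, 71497765 to 71511752, minus strand) was as sparse in endothelium, and most of its UMIs lay in the tumour cells, the most numerous class. Tumour cells also held most of all UMIs of the tumour-bearing libraries, so their share of the Plvap UMIs does not show a higher level. Naïve endothelium held 0 UMIs, and tumour-bearing endothelium held 5 UMIs in 2 cells, at 57.2 CPM in the KO intermediate and 44.2 in the KO late library; the 0 in the other tumour-bearing libraries allows up to 20.2 CPM in WT early and 122 in WT late. Tumour cells held 163 UMIs in 124 of 3396 cells, 81.1% of the 201 Plvap UMIs of the tumour-bearing libraries, at 8.12, 10.7, 2.12, 10.4, 3.05 and 3.77 CPM from WT early to KO late. TAM II, TAM I and lymphocytes held 0. The share of tumour cells with Plvap was 3.65%, and 0.876% after thinning. After thinning it was 7.14% in OPCs, 2.70% in mural cells, 2.68% in oligodendrocytes, 1.37% in astrocytes and 1.10% in endothelium, so tumour cells were not the class with the highest share. Endothelial markers stood at 844 CPM in tumour cells with Plvap and 885 in those without, at median depths of 13818 and 4778 UMIs. Plvap overlaps Gtpbp3 on the opposite strand, and Angpt2 overlaps Mcph1 and Esm1 overlaps Gzmk in the same way. Reads of the neighbours could therefore enter their counts if strand was not used. In all cells Mcph1 gave 2205 UMIs, Gtpbp3 681 and Gzmk 31, and 2 of the 14 Esm1 UMIs lay in lymphocytes. This limit holds for the Plvap and Angpt2 UMIs of tumour cells given here and below, and it was not tested.

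Tumour cells also held most of the Angpt2 molecules, 1466 of 1609 UMIs in the tumour-bearing libraries (91.1%), in 678 cells. They held most of all UMIs of these libraries as well. Their levels were 44.3, 28.2, 69.4, 54.1, 56.2 and 21.4 CPM from WT early to KO late. This is below tumour-bearing endothelium, which exceeded them by a log2 fold change of 3.02 (SE 0.38, adjusted p = 6.16e-07), and above TAM II (log2 fold change of TAM II over tumour cells −3.79, SE 0.61, adjusted p = 7.67e-06) and TAM I (−4.49, SE 1.04, adjusted p = 0.000696). TAM II held 5 Angpt2 UMIs and TAM I 1 UMI in 176 cells, so the size of these folds is not firm, and that for TAM I was −9.25 without the KO late library, which leaves TAM I at 0. The share of tumour cells with Angpt2 was 20.0%, and 6.25% after thinning, where lymphocytes had 0.538%.

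Apln was low in tumour cells and present in astrocytes without a tumour. Tumour cells had 0.338, 1.64, 2.12, 0.418, 16.1 and 3.52 CPM from WT early to KO late, and 82 of their 135 UMIs lay in 1 cell of the WT late library. That cell also held 90 Flt1, 73 Angpt2, 17 Kdr and 10 Pgf UMIs, with 366 UMIs of endothelial and 291 of tumour markers among 41194, and it was the tumour-class cell with the most Flt1 and Angpt2. Astrocytes held 90.2 and 84.1 in the naïve libraries and 198, 302, 105, 228 and 82.9 in the tumour-bearing libraries with at least 5 of them, which was not tested. Endothelium supplied 51.5% of the 454 Apln UMIs of the tumour-bearing libraries and tumour cells 29.7%.

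**Figure D5:**
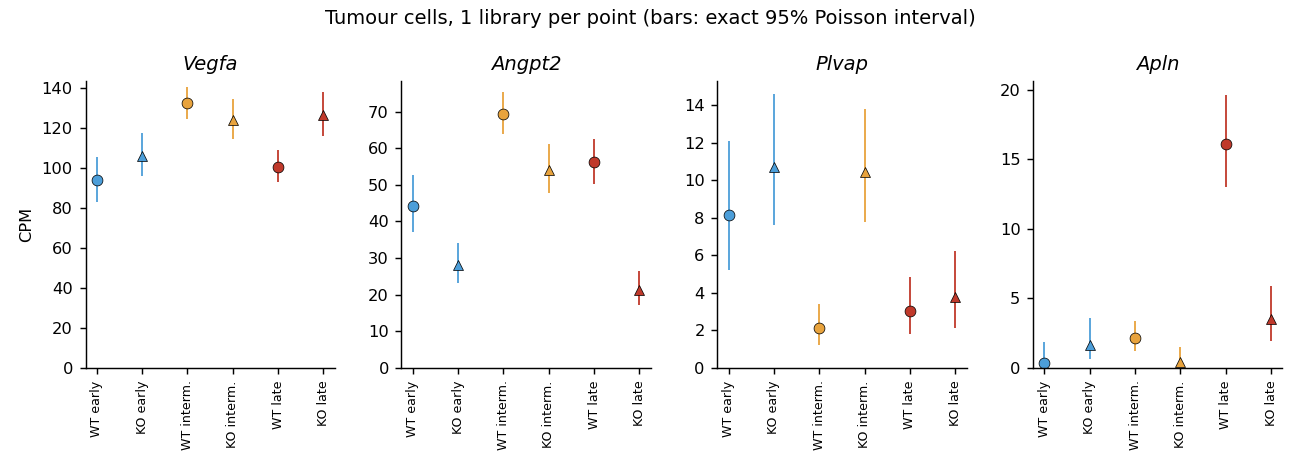
Levels in CPM (linear axes from 0) of 4 genes in the tumour cells of the 6 tumour-bearing libraries; bars are exact 95% Poisson intervals for counting error. Vegfa stays between 94.0 and 133, Angpt2 between 21.4 and 69.4 and Plvap between 2.12 and 10.7, while Apln is at 16.1 in the WT late library and at most 3.52 in the others.

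Of the 10 genes, those that could be tested between host genotypes or tumour stages did not pass the threshold, in comparisons with 1 library per genotype and condition; Apln in endothelium was not tested there, and the settings under which Apln or Vegfa passed are given with each gene. Between KO and WT endothelium 5 of the 10 genes were tested and 0 called, where 0.0911% of all 1098 genes tested were called (1 gene, Mgp, higher in KO and named after its value was seen; 86 at an unadjusted p under 0.05, 0 called by DESeq2). In tumour cells 7 were tested and 0 called, where 0% of all 13706 genes were called (879 unadjusted, 69 by DESeq2). In TAM II 3 were tested and 0 called, where 0% of all 5735 genes were called (266 unadjusted, 12 by DESeq2). Vegfa differed between KO and WT by a log2 fold change of 0.18 in tumour cells (SE 0.16, adjusted p = 0.974) and 0.26 in TAM II (SE 0.45, adjusted p = 0.998).

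Of the 7 genes tested in tumour cells, Plvap and Angpt2 had the largest genotype differences. Plvap was higher in the KO than in the WT library at each stage, with a log2 fold change of 1.06 (SE 0.47, adjusted p = 0.816). Angpt2 was lower in the KO library at each stage, with a log2 fold change of −0.75 (SE 0.24, unadjusted p = 0.0173, adjusted p = 0.633). In endothelium the receptors differed by −0.28 (Flt1, adjusted p = 0.905), −0.53 (Kdr, 0.685), −0.45 (Nrp1, 0.812) and 0.04 (Tek, 0.989) on the log2 scale, and Angpt2 by −0.43 (0.924).

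Between the late and the early stage 8 of the 10 genes were tested in tumour cells and 0 called, where 0% of all 14363 genes were called (1066 unadjusted, 20 by DESeq2). In TAM II 3 were tested and 0 called, where 0% of all 6492 genes were called (301 unadjusted, 0 by DESeq2). Vegfa in tumour cells differed by 0.13 (SE 0.20, adjusted p = 0.936). In TAM II it was lower late than early in WT (115 against 547) and higher in KO (309 against 240), with a log2 fold change of −1.05 (SE 0.56, adjusted p = 0.997) that became −2.21 without the KO early library (adjusted p = 0.00426) and 0.20 without the WT early library. Apln in tumour cells differed by 2.77 (SE 0.94, adjusted p = 0.611), a value that includes the 1 cell of the WT late library with 82 UMIs; with no count filter it was called (2.81, adjusted p = 0.00243). Microglia and astrocytes each had 1 of the 10 genes tested between tumour-bearing and naïve libraries, Nrp1 and Vegfa, and 0 called, where 16.8% of 3110 and 1.67% of 660 genes were called.

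A wider list of 49 angiogenesis genes, of which 48 were in the tables, was described by counts. In tumour-bearing against naïve endothelium 17 were tested, 3 rose and 0 fell, where 5.86% of all genes were called, with a median log2 fold change of −0.03, as over all genes (−0.03). Those 3 were Igfbp3, an IGF-binding protein of activated endothelium (5.02, SE 0.58, adjusted p = 4.53e-06), and the basement membrane genes Col4a1 (1.47, SE 0.34, adjusted p = 0.00802) and Lama4 (1.32, SE 0.35, adjusted p = 0.0204). Igfbp3 had 22.8 and 62.4 CPM in the naïve libraries and 2894, 702, 481, 1238, 774 and 1634 from WT early to KO late, with no overlap. With doublets removed none of the 3 passed (Igfbp3 4.59, adjusted p = 0.0752; Col4a1 1.19, 0.223; Lama4 1.15, 0.336). The Notch ligand Dll4 had 49.7 CPM in naïve and 121 in tumour-bearing endothelium over pooled cells and was not tested. Aplnr, the receptor of Apln, gave 1 UMI in naïve and 1 in tumour-bearing endothelium.

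Of the same list, 24 genes were tested between classes within the tumour-bearing libraries. In endothelium over tumour cells 20 were higher (53.0% of all genes were called in either direction), among them Cldn5, Tie1, Pecam1 and Cdh5, which also served to name the class, and 1 was lower (Fscn1, an actin bundler, −1.50); the largest were Igfbp3 (8.94), Cldn5 (8.64), Sox17 (8.41), Erg (8.26), Pdgfb (7.99) and Tie1 (7.78). In TAM II over tumour cells 6 were higher and 6 lower, where 70.0% of all genes were called. Besides Thbs1 (7.89), an angiogenesis inhibitor that also served as a macrophage marker, Pdgfb (4.24), Plaur, the urokinase receptor (3.70, adjusted p = 5.71e-12), and Nrp2 (3.08) were higher, and Lama4 (−4.36), Mcam (−4.03) and Sema3c (−3.64) lower. TAM II over TAM I gave 2 higher, Thbs1 (4.53) and Plaur (1.73, adjusted p = 0.000336), and 3 lower, Cd34 (−4.36), Pdgfb (−3.54) and Ets1 (−1.86), where 20.4% of all genes were called. In TAM I over tumour cells 7 were higher and 4 lower, where 65.1% were called. In microglia 5 were tested and 2 were lower in TAM I than in naïve cells (Ets1, −1.96, and Fscn1, −1.49), where 16.8% were called, and the genotype and stage comparisons called 0 of the list.

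Other ligands of the list were sparse. Vegfb, which binds Flt1, had 33.1 CPM in tumour cells and 20.0 in TAM II over pooled cells. Vegfc gave 34 UMIs in naïve and 9 in tumour-bearing endothelium. Angpt1, the agonist of Tek, had 128 CPM in tumour-bearing mural cells and 12.9 in tumour cells.

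The genes most like 3 of the 10 in pattern were sought over the 73 sums of class and library with at least 5 cells, by Pearson's r of log2(CPM + 10) among 14618 genes, as a description; the sums share libraries and differ in depth. Flt1 was followed most closely by Adgrf5 (0.91), Erg (0.90), Ushbp1 (0.89), Adgrl4 (0.89) and Rasip1 (0.89). Vegfa had no close neighbour, with Hgf (0.57), Etv4 (0.55), Scrg1 (0.54) and Cyp2j6 (0.54) among the genes at the top. Plvap gave 0.51 for Serinc5, 0.50 for Vps37a and Bcar1 and 0.49 for Matn4 and P3h4.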

How the data were processed

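Single cells of 2 naïve and 6 tumour-bearing libraries were measured by Drop-seq. The authors made the deposited UMI counts, which are not normalized, with bcl2fastq and the Drop-seq pipeline; per the labels' processing notes the reads were converted with bcl2fastq 2.0 and aligned with STAR (version not given) to GRCm38/mm10. The annotation and the use of strand are not given in the sources used here. Each table lists 3000 barcodes, so the filters of the study's methods were applied: the top 1000 barcodes per library, genes in at least 30 cells, and cells in which no fewer than 1000 genes were found. Clustering used tSNE of 50 principal components (Rtsne 0.17, perplexity 50) and HDBSCAN (at least 19 cells, scikit-learn 1.9.0, Python 3.11.15), and unassigned cells took the class of their 15 nearest neighbours. Marker lists gave each cluster its name; since the study's own names were not taken over, rebuilt naming may account for a difference from it. Doublets were kept in the main analysis.

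UMIs were summed per library and class with at least 5 cells and tested over all genes with edgeR 4.0.16 (R 4.3.3, TMM, filterByExpr, quasi-likelihood F test). A gene was called when its p, adjusted after Benjamini and Hochberg, was under 0.05. Tumour-bearing and naïve libraries were compared with genotype as covariate, classes with the library as block, and genotypes and stages with the other as block. Each condition and genotype has 1 library, so p-values measure the spread between these libraries. The 12 fits share libraries. The fits were tested on simulated data with 200 genes changed 4-fold. Of those tested, 99% were recovered for endothelium with and without tumour (1200 genes) and 62.6% for TAM II by stage (6028 genes). Counts were simulated per library sum and not per cell. The recovery therefore does not cover genes whose UMIs lie in few cells, such as Apln, Angpt2 and Pgf in endothelium. CPM are UMIs per 1000000. Poisson and binomial intervals are exact at 95% and cover counting error only, and a count of 0 was given as the limit of 3 counts. Positions are those of GENCODE M21.

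All 10 genes are reported whatever their values, with at most 6 called genes of the wider list per comparison and the 5 genes most like Vegfa, Flt1 and Plvap, with at least 100 UMIs; 1 of the latter is not reported here. The genes and lists were chosen with earlier results of these data known. Alternatives were another tSNE seed, Leiden clustering (leidenalg 0.10.2), at least 500 genes per cell, clustering with all genes, the whole endothelial cluster, doublets removed by Scrublet (scanpy 1.11.5, or the 5% highest scores where it marked under 0.5%), DESeq2 1.42.0, RLE scaling or library sizes only, no genotype covariate, no count filter, at least 10 cells per sum, and each library left out in turn; leaving out cells with shared barcodes was chosen after seeing the data.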

Additional observations from a re-analysis of the deposited data

Results flagged for a closer look

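In 24 sets of libraries the gap between the highest or lowest library and its nearest neighbour was compared with Dixon's critical value. A set was 1 gene in 1 class with 5 or 6 libraries and at least 20 UMIs. Independent normal values pass it in about 1 of 20 groups. These counts are sparse and the sets share libraries and cells, so that rate does not carry over to them. The critical value was passed in 6 sets, each by a high library.

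In endothelial cells Apln stood at 1329 CPM in the WT early library, where the other tumour-bearing libraries had a median of 117 and a range of 22.1 to 362. Pgf stood at 839 in the endothelium of the KO late library, with a median of 19.1 and a range of 0 to 216 in the others, and all 38 of its UMIs there lay in 1 cell.

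In the tumour cells of the KO intermediate library Kdr stood at 10.4 CPM against 0.338 to 4.06 in the others, and Tek at 3.97 against 0 to 1.25. In both genes 1 cell, which held UMIs of endothelial and of tumour markers, gave 50 of the 50 Kdr and 18 of the 19 Tek UMIs. In those of the WT late library Apln stood at 16.1 against 0.338 to 3.52, with 82 of its 95 UMIs in 1 cell.

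In astrocytes Vegfa stood at 1000.2 CPM in the KO intermediate library, from 19 UMIs in 9 cells, against 166 to 385 in the other tumour-bearing libraries.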

How the results depend on the processing

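The 3 genes called in endothelium with against without tumour became 0 with doublets removed and 0 to 3 when 1 library was left out (0 without WT early, 2 without WT naïve, 2 without KO late). The number of all genes called there was 80 and became 16 with doublets removed, 31 without KO naïve, 50 without WT naïve, 229 with the whole endothelial cluster and 172 with no count filter. Between KO and WT endothelium the count of 0 became 1 with Leiden clustering, with at least 500 genes per cell and with no count filter, and 0 to 1 when 1 library was left out; in each case the gene was Apln, lower in KO. Endothelium against tumour cells gave 5 to 7 genes when 1 library was left out, KO against WT 0 to 0 in tumour cells and in TAM II.

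For Vegfa, leaving out 1 library in turn gave log2 fold changes of 1.54 to 1.92 for TAM II over tumour cells, 3.14 to 3.77 for TAM II over TAM I, −2.22 to −1.46 for TAM I over tumour cells and −3.48 to −2.40 for endothelium over tumour cells; the last was −0.24 (adjusted p = 0.679) with the whole endothelial cluster. In astrocytes with against without tumour it was −0.0759 with no count filter, −0.0374 with at least 10 cells per sum, and −0.0374 to 0.52 when 1 library was left out. Late against early it was −0.0030 to 0.24 in tumour cells and −2.21 (without KO early, adjusted p = 0.00426) to 0.20 (without WT early) in TAM II. The cause of these changes was not tested.

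Signs also turned for Kdr in endothelium with tumour (−0.65 with the whole cluster; −0.0840 to 0.48 when 1 library was left out, below 0 without KO naïve, −0.0764, and KO intermediate), for Nrp1 there (−0.30 without KO naïve to 1.04 without WT naïve; −0.12 without KO intermediate) and for Vegfa in KO against WT TAM II (−0.27 without WT late or KO late to 1.18 without WT early; −0.0490 without WT intermediate and −0.0377 without KO intermediate). None of these was called in the main analysis. Vegfa in TAM I against naïve microglia, below the count filter, had a value only with no filter (2.76, adjusted p = 0.101), and Apln in tumour cells late against early passed only with no count filter (2.81, adjusted p = 0.00243). Leaving out WT intermediate gave no value in endothelium with against without tumour, in astrocytes or between genotypes in endothelium, since that library had under 5 cells there.

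With 1 library per group and 3 to 33 tumour-bearing endothelial cells per library, a count of 0 in endothelium allows up to 20.2 CPM in WT early and up to 206 in WT intermediate, which limits Esm1, Plvap and Pgf.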

Other observations

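Some of the 10 genes were also found in classes outside the comparisons. Apln was present in oligodendrocytes, the myelinating cells, at 33.9 and 54.7 CPM in the naïve libraries and between 27.2 and 107 in the tumour-bearing ones, which overlap. Nrp1 was present in mural cells and fibroblasts at 281, 142, 227 and 265 CPM in the WT early, KO early, KO intermediate and WT late libraries. Esm1 gave 4 UMIs in 1 mural cell of the WT late library. Of the 8 Plvap UMIs of the naïve libraries 5 lay in choroid plexus epithelial-like cells, and Plvap gave 15 UMIs in oligodendrocytes, 10 in OPCs and 5 in mural cells of the tumour-bearing libraries. In TAM II the change of Nrp1 from early to late was a log2 fold change of 0.82 (SE 0.37, edgeR adjusted p = 0.997), and that of Flt1 was −1.31 (SE 0.64, adjusted p = 0.997).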
